A study of Mus musculus with 2 samples.

Results

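The fibrillar collagen chains measured here were Col1a1, Col1a2, Col3a1, Col5a1, Col5a2, Col5a3 and Col11a1, chosen by gene symbol as 7 of the 32285 genes in the count tables. All of them were detected in both libraries. Each fibrillar collagen is a triple helix of 3 chains that is secreted as procollagen, trimmed outside the cell and assembled into fibrils. Col1a1 and Col1a2 encode the chains of type I collagen, which usually combines a pair of the Col1a1 chain with a single Col1a2 chain, while Col3a1 encodes the only chain of type III collagen. Col5a1, Col5a2, Col5a3 and Col11a1 encode chains of types V and XI, which lie partly inside type I fibrils and are known for starting fibril assembly and limiting fibril width. In the lung, fibroblasts are the main source of these chains, and their deposition is a hallmark of scarring.

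The cells came from the lungs of mice of genotype Lepr-CreERT2;Rosa26-tdtomato, 8 to 10 weeks old, that were given bleomycin, a DNA-damaging drug used to injure rodent lungs, or saline. Both groups carry the same alleles, in which a tamoxifen-inducible Cre driven from Lepr switches on the red protein tdTomato in cells that express Lepr at the time of induction, and in their descendants. Live tdTomato+ cells negative for CD45, EpCAM and CD31 (markers of blood, epithelial and endothelial cells) were sorted and made into 1 droplet 3' library per group, so the cells described are the marked mesenchyme and not all lung mesenchyme. How many mice went into each library, the bleomycin dose, when lungs were taken and when Cre was induced are not stated in the labels.

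With 1 library per group there is no replicate and no test. Levels are UMI counts scaled to CPM (counts per 1000000 UMIs), summed over the cells of a class, where a UMI marks 1 captured RNA molecule. Intervals in brackets are 95% intervals that cover counting error only, not differences between animals or between cells. They treat UMIs of the same cell as independent, so they do not allow for the spread over cells. A chain is called higher or lower where the libraries are at least 2-fold apart, the higher one reaches 10 CPM and the interval of the ratio stays clear of 1. Since a 3' UMI counts a molecule once whatever its length, levels of different chains were compared without scaling for length. Cells were clustered with every collagen gene left out, and clusters were named from marker lists that hold no collagen gene. The names were rebuilt from those markers and are written with the ending -like.

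The bleomycin library held 10138 barcodes and 134732429 UMIs with a median of 11662 UMIs per cell, and the saline library held 8396 barcodes and 60937359 UMIs with a median of 6762. After filtering, 9459 mesenchymal cells of the bleomycin library and 8174 of the saline library were used, and 25 barcodes occurred in both libraries. The libraries held different mixtures of cells. In bleomycin 4195 cells were inflammatory fibroblast-like (led by Saa3, Hp and Lcn2), against 90 in saline. Fibrotic fibroblast-like cells (led by Spp1, Cthrc1 and Thbs4) numbered 2280 in bleomycin and 8 in saline. Alveolar fibroblast-like cells (led by Inmt, Slc7a10 and Mettl7a1, among others) numbered 304 in bleomycin and 5791 in saline. The other classes were adventitial fibroblast-like, with 1101 bleomycin and 1458 saline cells, peribronchial and ductal myofibroblast-like, with 567 bleomycin and 400 saline cells, smooth muscle-like, with 517 bleomycin and 387 saline cells, and proliferating, with 495 bleomycin and 40 saline cells. A cluster of 214 bleomycin and 9 saline cells led by immunoglobulin genes was left unnamed. The 7 lymphocyte markers summed to 439 CPM in bleomycin mesenchymal cells and 30.5 CPM in saline ones, where 2 of them were at 0, and their part in the results was not tested. The 7 endothelial markers summed to 6.04 CPM in bleomycin and 3.59 CPM in saline.

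The genes lie on 6 chromosomes of the mouse genome (build mm10, GENCODE annotation). Col1a1 (ENSMUSG00000001506) is at chr11:94936224-94953042 on the plus strand and Col1a2 (ENSMUSG00000029661) at chr6:4504814-4541544 on the plus strand. Col3a1 (ENSMUSG00000026043) is at chr1:45311538-45349706 on the plus strand, and Col5a2 (ENSMUSG00000026042) at chr1:45374321-45503282 on the minus strand, so these neighbours run towards each other with 24615 bases between them. Col5a1 (ENSMUSG00000026837) is at chr2:27886425-28039514 on the plus strand, Col5a3 (ENSMUSG00000004098) at chr9:20770050-20815067 on the minus strand and Col11a1 (ENSMUSG00000027966) at chr3:114030540-114220718 on the plus strand.

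Of the 7 genes, 5 had a promoter window in the RefSeq table (assembly GRCm38.p6), and the 250 bases before the start of 3 of them are printed because these genes span how widely the chains were found, from Col3a1 in most cells to Col11a1 in few. Capitals mark the letters CCAAT or TATAAA read on either strand, and each run is written 5′ to 3′ on the strand of the gene. The windows are chr1:45311288-45311537 for Col3a1 (plus strand), chr9:20815068-20815317 for Col5a3 (minus strand) and chr3:114030290-114030539 for Col11a1 (plus strand).
Col3a1: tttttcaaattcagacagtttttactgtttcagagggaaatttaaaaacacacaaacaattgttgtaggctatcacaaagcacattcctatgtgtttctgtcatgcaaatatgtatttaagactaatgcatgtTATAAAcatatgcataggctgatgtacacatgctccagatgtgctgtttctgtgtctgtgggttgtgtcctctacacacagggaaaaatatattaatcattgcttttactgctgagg
Col5a3: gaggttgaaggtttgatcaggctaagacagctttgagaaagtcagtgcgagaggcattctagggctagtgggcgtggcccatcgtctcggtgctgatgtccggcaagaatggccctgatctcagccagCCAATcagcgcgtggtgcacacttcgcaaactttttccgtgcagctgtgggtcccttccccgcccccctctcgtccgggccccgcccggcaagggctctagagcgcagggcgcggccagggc
Col11a1: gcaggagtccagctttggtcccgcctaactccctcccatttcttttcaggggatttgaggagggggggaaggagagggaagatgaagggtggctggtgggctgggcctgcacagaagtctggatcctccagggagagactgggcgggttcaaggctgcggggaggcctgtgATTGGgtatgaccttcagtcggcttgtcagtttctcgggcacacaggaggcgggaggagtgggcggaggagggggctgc

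The Col3a1 window had a GC content of 35.2%, against 62.8% for Col5a3, 62.4% for Col11a1, 62% for Col1a2 and 76.4% for Col5a1. TATAAA was found in the Col3a1 window alone among the 5, and in 12.4% of all 32851 windows of the same length. CCAAT was found in 3 of the 5 (Col1a2, Col5a3 and Col11a1) and in 33.8% of all windows. GGGCGG, the core of an SP1 site, was found in 4 of the 5 (all except Col3a1) and in 32.7% of all windows. CAGACA, a motif described for SMAD factors, was found in 3 of the 5 (Col1a2, Col3a1 and Col5a1) and in 17.1% of all windows. All 4 motifs were searched on both strands, and a match describes the letters of the window and not a bound site.

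Summed over all mesenchymal cells, every one of the 7 chains was higher in the bleomycin library. Col1a1 stood at 3838 CPM [3827 to 3849] in bleomycin and 961 CPM [953 to 969] in saline, a ratio of 3.99 [3.96 to 4.03]. Its partner Col1a2 stood at 4177 CPM in bleomycin and 1421 CPM in saline, a ratio of 2.94 [2.92 to 2.96]. Col3a1 stood at 4482 CPM in bleomycin and 1689 CPM in saline, a ratio of 2.65 [2.64 to 2.67]. In saline the order of the 3 major chains was therefore Col3a1, Col1a2 and Col1a1, with intervals that did not overlap, and in bleomycin the order was the same with the 3 levels closer together.

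The minor chains differed by more than the major ones between the libraries, with the exception of Col5a1. Col5a1, present in most type V collagen, stood at 433 CPM in bleomycin and 108 CPM in saline, a ratio of 3.995 [3.89 to 4.10]. Col5a2, the usual partner of Col5a1, stood at 1119 CPM in bleomycin and 216 CPM in saline, a ratio of 5.18 [5.09 to 5.28]. Col5a3, a less common type V chain, stood at 107.5 CPM in bleomycin and 19.8 CPM in saline, a ratio of 5.43 [5.11 to 5.76]. Col11a1, a type XI chain best known from cartilage, had 1350 UMIs (10.4 CPM) in bleomycin and 3 UMIs (0.0503 CPM) in saline. Its ratio of 208 has a counting interval of 70.9 to 1008 because the saline level rests on those 3 UMIs.

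The rule called all 7 chains higher, where it called 5.57% of the 8013 measured genes higher and 6.03% lower. The median log2 ratio was 2.00 over the chains and -0.05 over all measured genes. Together the 7 chains took 1.42% of all mesenchymal UMIs in bleomycin and 0.441% in saline. Within that fraction, Col1a1 made up 27.1% in bleomycin and 21.8% in saline, and Col1a2 29.5% in bleomycin and 32.2% in saline. Col3a1 made up 31.6% in bleomycin and 38.3% in saline, and the type V and XI chains together 11.8% in bleomycin and 7.80% in saline. The chains of bleomycin cells thus held more Col1a1 and more of the minor chains, and less Col3a1, per fibrillar UMI.

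**Figure D1:**
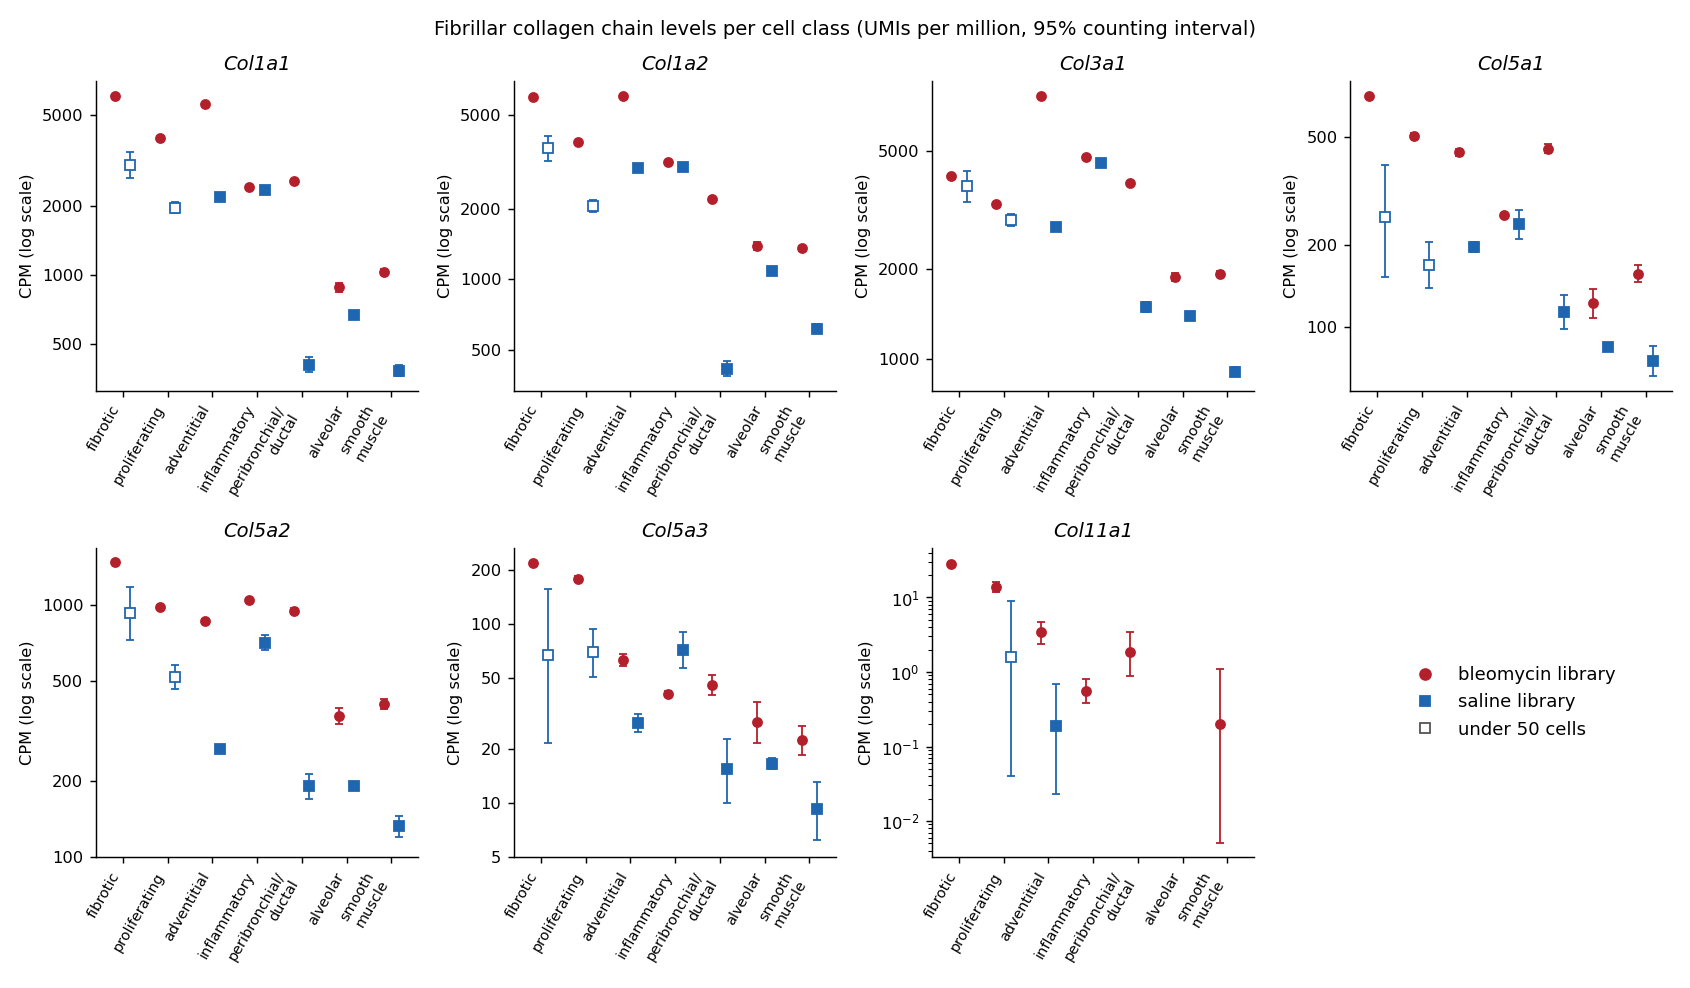
Level of each of the 7 chains (CPM, log axis) in every cell class, with bleomycin points left of saline points bars for 95% Poisson intervals and open squares for under 50 cells (a level of 0 is not drawn). Fibrotic fibroblast-like cells of bleomycin held 28.4 CPM of Col11a1, which had 0 UMIs in alveolar fibroblast-like cells of both libraries.

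These sums depend on which cells each library held. When the bleomycin levels of 7 clusters with at least 50 cells per library were weighted to the saline mixture of clusters, the ratio of bleomycin to saline was 1.51 for Col1a1, 1.35 for Col1a2, 1.47 for Col3a1, 1.66 for Col5a1, 2.04 for Col5a2 and 1.55 for Col5a3. Weighted to the bleomycin mixture, the ratios were 1.28 for Col1a1, 1.21 for Col1a2, 1.24 for Col3a1, 1.34 for Col5a1, 1.67 for Col5a2 and 0.747 for Col5a3. Only Col5a2 kept a ratio of at least 2 under the saline mixture, and no chain did under the bleomycin mixture, except Col11a1, whose levels there stayed under 10 CPM. The fibrotic fibroblast-like and proliferating clusters and a small smooth muscle-like cluster lie outside both mixtures because saline held under 50 of their cells.

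**Figure D2:**
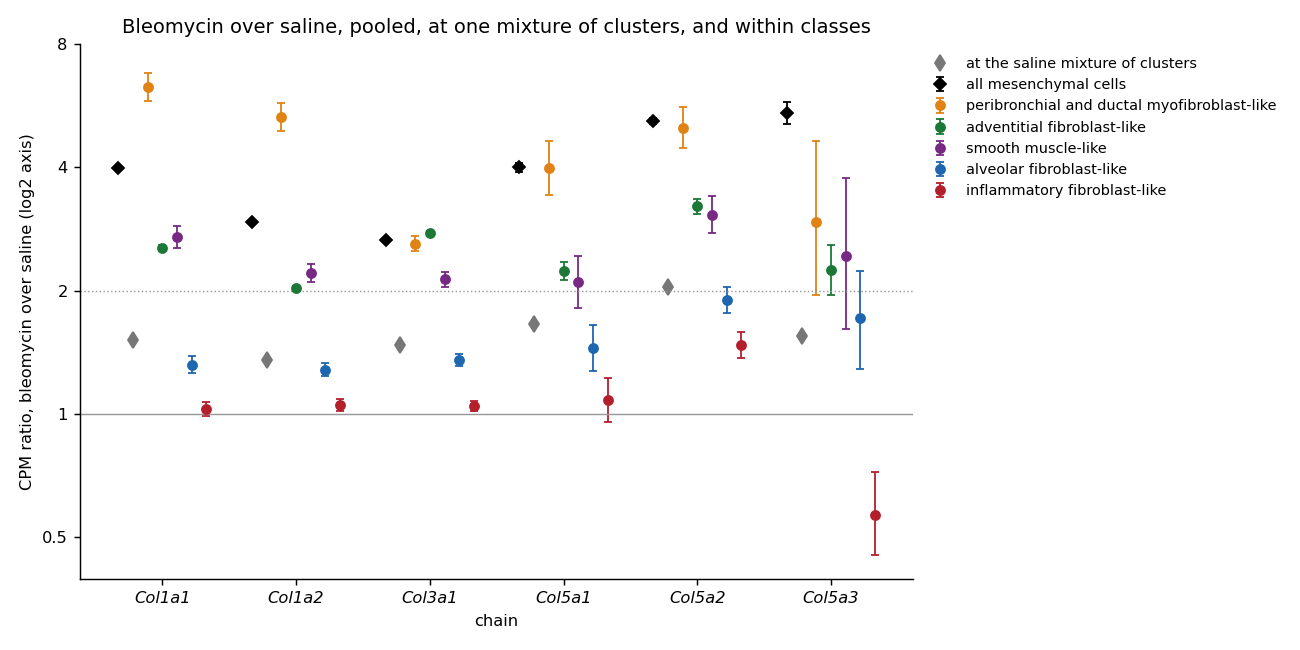
Ratio of bleomycin to saline CPM (log2 axis) for each chain, over all mesenchymal cells, at the saline mixture of clusters (drawn without an interval) and within classes of at least 50 cells per library, with 95% counting intervals. The ratios over all cells, 2.65 for Col3a1 to 5.43 for Col5a3 among the 6 chains other than Col11a1, are larger than the 1.35 to 2.04 at the saline mixture.

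Col5a3 and Col11a1 came mainly from fibrotic fibroblast-like cells in bleomycin, and Col3a1 did not. Fibrotic fibroblast-like cells were 24.1% of bleomycin mesenchymal cells and held 47.5% of Col1a1 UMIs, 43.0% of Col1a2, 49.0% of Col5a1 and 39.9% of Col5a2 UMIs in that library. They held 60.8% of its Col5a3 UMIs and 81.9% of its Col11a1 UMIs, but 27.6% of its Col3a1 UMIs. Their median depth was 15173 UMIs per cell. They held 38921005 of the 129298205 UMIs of bleomycin mesenchymal cells, a share above both their 24.1% of the cells and their 27.6% of Col3a1 UMIs. Inflammatory fibroblast-like cells were 44.3% of the cells and held 45.4% of Col3a1 UMIs, 40.0% of Col5a2, 32.4% of Col1a2 and 26.8% of Col1a1 UMIs. They held 16.1% of Col5a3 and 2.30% of Col11a1 UMIs. Col3a1 and Col5a2 thus came from inflammatory cells in about their share of the cells. Proliferating cells, 5.23% of the cells, held 15.2% of Col5a3 and 12.3% of Col11a1 UMIs, with a median depth of 22525 UMIs per cell against 11897 over all bleomycin mesenchymal cells. In saline, alveolar fibroblast-like cells were 70.8% of the cells and held 49.9% of Col1a1, 54.3% of Col1a2, 58.9% of Col3a1 and 63.2% of Col5a2 UMIs. Saline adventitial fibroblast-like cells were 17.8% of the cells and held 39.8% of Col1a1, 36.8% of Col1a2 and 28.7% of Col3a1 UMIs.

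**Figure D3:**
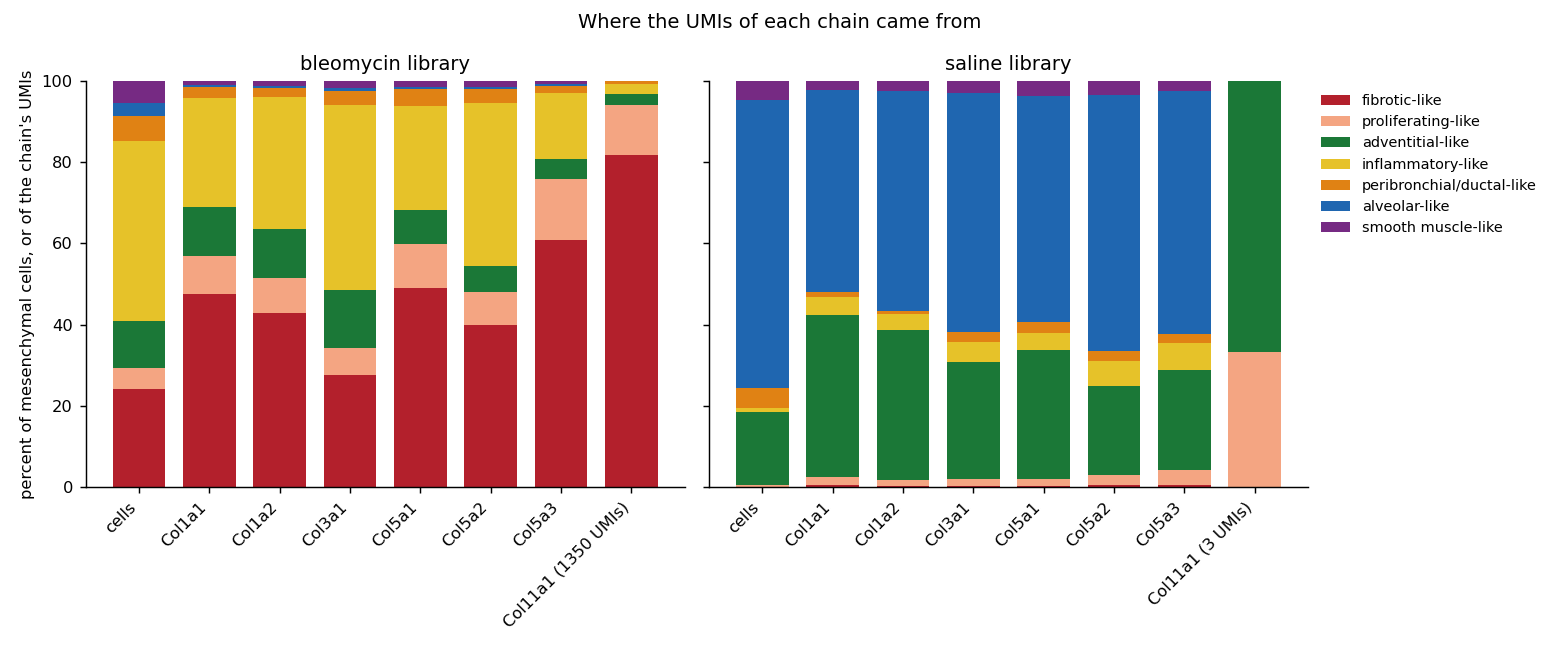
Share of each chain's UMIs (percent) that came from each class, bleomycin library left and saline library right, with the class's share of mesenchymal cells as the first bar. The saline bar of Col11a1 rests on 3 UMIs. In bleomycin the fibrotic fibroblast-like share runs from 27.6% of Col3a1 to 81.9% of Col11a1 UMIs, from 24.1% of the cells. These cells had a median depth of 15173 UMIs, against 11897 over all bleomycin mesenchymal cells.

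Fibrotic fibroblast-like cells of bleomycin held the highest Col1a1, Col5a1, Col5a2, Col5a3 and Col11a1 levels of the bleomycin classes. Col1a1 stood there at 6055 CPM, Col1a2 at 5961 CPM and Col3a1 at 4106 CPM. Col5a1 stood at 705 CPM, Col5a2 at 1483 CPM and Col5a3 at 217 CPM, and Col11a1 had 1105 UMIs or 28.4 CPM. For Col1a2 and Col3a1 the bleomycin adventitial fibroblast-like cells were higher, at 6049.7 and 7631 CPM. The 8 saline cells of the fibrotic cluster held 3019.7 CPM of Col1a1, 3621 CPM of Col1a2 and 3808 CPM of Col3a1, too few cells for a comparison. Proliferating cells of bleomycin held 3937 CPM of Col1a1, 178 CPM of Col5a3 and 14.0 CPM of Col11a1, the second highest levels of the last pair of chains among the bleomycin classes.

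Among the 5 classes with at least 50 cells in each library, 18 of 30 chain and class pairs were higher in bleomycin and none was lower. The share of all measured genes called higher ran from 1.75% in alveolar to 6.41% in peribronchial and ductal cells. Col11a1 reached 10 CPM in none of these classes and is not among the pairs. The 18 pairs came from 3 classes, adventitial, peribronchial and ductal, and smooth muscle-like, with all 6 chains in each, whereas alveolar and inflammatory fibroblast-like cells contributed no pair. With free RNA subtracted, or as a mean over cells, the alveolar class contributed 1.

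In alveolar fibroblast-like cells each of 6 chains had a ratio above 1 and below 2. Col1a1 stood at 886 CPM in bleomycin and 672 CPM in saline, Col1a2 at 1387 CPM in bleomycin and 1082 CPM in saline, and Col3a1 at 1889 CPM in bleomycin and 1396 CPM in saline, with ratios of 1.32, 1.28 and 1.35. Col5a2 had the largest ratio, 1.90 [1.76 to 2.05], at 364 CPM in bleomycin and 192 CPM in saline. Col5a1 stood at 122 CPM in bleomycin and 84.4 CPM in saline, and Col5a3 at 28.4 CPM in bleomycin and 16.6 CPM in saline. None of the 6 met the rule, which called 1.75% of measured genes higher in this class, and their median log2 ratio was 0.49 against 0.02 over all genes. Median depth was alike, 6515 UMIs per cell in bleomycin and 6811 in saline.

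Inflammatory fibroblast-like cells held nearly the same level of the major chains in both libraries. Col1a1 stood at 2407 CPM in bleomycin and 2338 CPM in saline, a ratio of 1.03 [0.990 to 1.07]. Col1a2 stood at 3172 CPM in bleomycin and 3013 CPM in saline, and Col3a1 at 4769 CPM in bleomycin and 4551 CPM in saline. Both Col1a1 and Col3a1 in the 90 saline cells of this class were above 3 times their saline level in alveolar fibroblast-like cells. Col5a2 was 1.47-fold [1.37 to 1.58] higher in bleomycin, at 1049.8 CPM in bleomycin and 712 CPM in saline, and Col5a3 went the other way, at 40.7 CPM in bleomycin and 71.6 CPM in saline, a ratio of 0.568 [0.453 to 0.721]. Col5a1 stood at 259 CPM in bleomycin and 239.6 CPM in saline. None of the 6 chains met the rule, which called 3.82% of genes higher here, and their median log2 ratio was 0.07 against 0.03 over all genes.

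The cells of the inflammatory class were spread differently over its sub-clusters in the 2 libraries. At a finer clustering resolution, 2922 of the 4195 bleomycin cells and 35 of the 90 saline cells fell into 1 sub-cluster, and 569 bleomycin and 34 saline cells into another. The latter was led by Igha, Jchain and Igkc and took no class name at that resolution. Col5a3 stood at 35.9 CPM in bleomycin and 17.1 CPM (7 UMIs) in saline in the first, and at 59.7 CPM in bleomycin and 109 CPM (48 UMIs) in saline in the second, so its direction differed between them. Col1a1 had ratios of 1.09 in the first and 1.38 in the second, and Col5a2 ratios of 1.69 and 1.86. Both sub-clusters are under the minimum of 50 saline cells.

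Adventitial fibroblast-like cells, which lie in the cuffs around airways and vessels, held the most Col3a1 of any class in bleomycin. Col1a1 stood at 5552 CPM in bleomycin and 2182 CPM in saline, a ratio of 2.54 [2.51 to 2.58]. Col3a1 stood at 7631 CPM in bleomycin and 2767 CPM in saline, a ratio of 2.76, and Col1a2 at 6049.7 CPM in bleomycin and 2982 CPM in saline, a ratio of 2.03. Col5a1 stood at 440.0 CPM in bleomycin and 197 CPM in saline, Col5a2 at 866 CPM in bleomycin and 270 CPM in saline, and Col5a3 at 62.8 CPM in bleomycin and 28.0 CPM in saline, with Col5a2 at the largest ratio of 3.21. All 6 met the rule, against 3.42% of genes called higher, and their median log2 ratio was 1.26 against -0.06 over all genes. Col11a1 had 37 UMIs in bleomycin and 2 in saline.

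The adventitial class was made of 2 clusters that differed in size between the libraries. The cluster led by Pi16, Ly6c1 and Ccl8 held 737 bleomycin and 468 saline cells, with median depths of 9102 UMIs per cell in bleomycin and 4952.5 in saline. In it Col1a1 stood at 6858 CPM in bleomycin and 3467 CPM in saline, and Col3a1 at 9506 CPM in bleomycin and 3867 CPM in saline, and 4 of 6 chains were called higher, against 4.21% of genes. The cluster led by Aqp1, Adh7 and Rbp4 held 364 bleomycin and 990 saline cells. In it Col1a1 stood at 2802 CPM in bleomycin and 1769.7 CPM in saline, and 1 of 6 chains, Col5a2, was called higher with a ratio of 2.29, against 2.68% of genes. At the finer resolution, 989 of the 1101 bleomycin cells of the class fell into a sub-cluster that took 44 of its saline cells, so the libraries' cells of the class hardly mixed.

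Within the adventitial sub-clusters the ratios were smaller than over the class. In the sub-cluster of 75 bleomycin and 997 saline cells, the only one with at least 50 of each, Col1a1 stood at 1976 CPM in bleomycin and 1777 CPM in saline, a ratio of 1.11 [1.04 to 1.19]. Col3a1 stood there at 2166 CPM in bleomycin and 2424 CPM in saline, a ratio of 0.894 [0.839 to 0.951], which is the opposite direction to the class. In the sub-cluster of 989 bleomycin and 44 saline cells the ratio was 1.26 for Col1a1 and 1.33 for Col3a1, and in the third, of 36 bleomycin and 417 saline cells, it was 1.52 for Col1a1 and 1.31 for Col3a1. None of the 6 chains other than Col11a1 reached a ratio of 2 in any of these 3 sub-clusters.

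Peribronchial and ductal myofibroblast-like cells, a contractile type beside airways and alveolar ducts, had the largest ratios of the 5 classes compared for 5 of the 6 chains. Col1a1 stood at 2556 CPM in bleomycin and 407 CPM in saline, a ratio of 6.29 [5.81 to 6.81], and Col1a2 at 2208 CPM in bleomycin and 416 CPM in saline, a ratio of 5.31. Col3a1 stood at 3884 CPM in bleomycin and 1494 CPM in saline, a ratio of 2.60. Col5a1 stood at 453 CPM in bleomycin and 114 CPM in saline, Col5a2 at 955 CPM in bleomycin and 191 CPM in saline, and Col5a3 at 45.6 CPM in bleomycin and 15.5 CPM in saline, with ratios of 3.98, 4.99 and 2.94. All 6 met the rule, against 6.41% of genes called higher, and their median log2 ratio was 2.16 against 0.05 over all genes. Type I chains were thus the ones furthest apart between libraries in this class, where Col3a1 was 38.4% of fibrillar UMIs in bleomycin and 56.6% in saline.

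The cells of this class differed between the libraries in more than collagen. The median depth was 8828 UMIs per cell in bleomycin and 3336.5 in saline. At the finer resolution, the class fell into 3 main sub-clusters, of 351 bleomycin and 3 saline cells, of 27 bleomycin and 319 saline cells, and of 186 bleomycin and 78 saline cells. The last of these took the smooth muscle name at that resolution, with 5 of that list's markers among its leading 10 genes. In it Col1a1 stood at 607 CPM in bleomycin and 155 CPM in saline, a ratio of 3.93 [3.10 to 5.05], and Col3a1 at 1359 CPM in bleomycin and 593 CPM in saline, a ratio of 2.29. In the mostly saline one, Col1a1 stood at 856 CPM in the bleomycin cells and 493 CPM in the saline cells, a ratio of 1.74. Of the 13745 bleomycin Col1a1 UMIs of the class, the sub-cluster of 186 bleomycin cells held 986 and the mostly saline one 108. Most of the rest came from the sub-cluster of 351 bleomycin and 3 saline cells. The class ratio of 6.29 for Col1a1 thus rests largely on bleomycin cells with few saline counterparts. The leading 10 genes of the whole class held 2 of its own markers and 2 smooth muscle markers. The part of these differences in the chains' ratios was not tested.

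Smooth muscle-like cells held the lowest Col1a1 of the bleomycin classes apart from alveolar fibroblast-like cells. Col1a1 stood at 1033 CPM in bleomycin and 382 CPM in saline, a ratio of 2.70, Col1a2 at 1357 CPM in bleomycin and 616 CPM in saline, and Col3a1 at 1935 CPM in bleomycin and 908 CPM in saline. Col5a1 stood at 157 CPM in bleomycin and 74.9 CPM in saline, Col5a2 at 406 CPM in bleomycin and 133 CPM in saline, and Col5a3 at 22.5 CPM in bleomycin and 9.25 CPM in saline. All 6 met the rule, against 3.12% of genes, with a median log2 ratio of 1.21 against 0.06 over all genes. A cluster of 59 bleomycin and 43 saline cells within the class was deeper than the rest and held 4065 CPM of Col3a1 in bleomycin and 1229.6 CPM in saline. Without it 3 of 6 chains met the rule, against 3.43% of genes, and the ratio was 2.07 for Col1a1, 1.73 for Col1a2 and 1.61 for Col3a1. When the 5% of cells that scored highest as doublets were left out, 2 of 6 chains met it. The share of all genes was not worked out for that setting.

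The ratio of 2 chains in the same cells does not depend on the library total. The type I ratio, Col1a1 to Col1a2 UMIs, was 0.919 in bleomycin and 0.676 in saline over all mesenchymal cells. Within classes it was higher in bleomycin, with intervals that did not overlap, in adventitial fibroblast-like cells at 0.918 [0.908 to 0.928] against 0.732 [0.719 to 0.744] in saline. It was likewise higher in peribronchial and ductal myofibroblast-like cells at 1.16 [1.13 to 1.19] in bleomycin against 0.978 [0.877 to 1.09] in saline, and in smooth muscle-like cells at 0.761 [0.734 to 0.789] in bleomycin against 0.621 [0.578 to 0.667] in saline. It stood at 0.639 in bleomycin and 0.621 in saline in alveolar fibroblast-like cells, and at 0.759 in bleomycin and 0.776 in saline in inflammatory fibroblast-like cells, with overlapping intervals in both. In bleomycin fibrotic fibroblast-like cells it was 1.02 [1.01 to 1.02]. The intervals of the peribronchial and ductal class overlapped at the finer resolution, at 1.22 in bleomycin and 1.08 in saline, and with free RNA subtracted, at 1.19 in bleomycin and 1.04 in saline. In the adventitial sub-cluster with at least 50 cells of each library it was 0.768 in bleomycin and 0.709 in saline, with overlapping intervals. In that of 989 bleomycin and 44 saline cells, the bleomycin to saline CPM ratio was 1.26 for both type I chains. In that of 36 bleomycin and 417 saline cells it was 1.52 for Col1a1 and 1.30 for Col1a2. The Col1a1 to Col1a2 ratio ran from 0.621 to 1.16 over the mesenchymal classes of at least 50 cells. It counts captured RNA molecules of different genes, so it cannot be set against the number of chains in the type I protein.

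**Figure D4:**
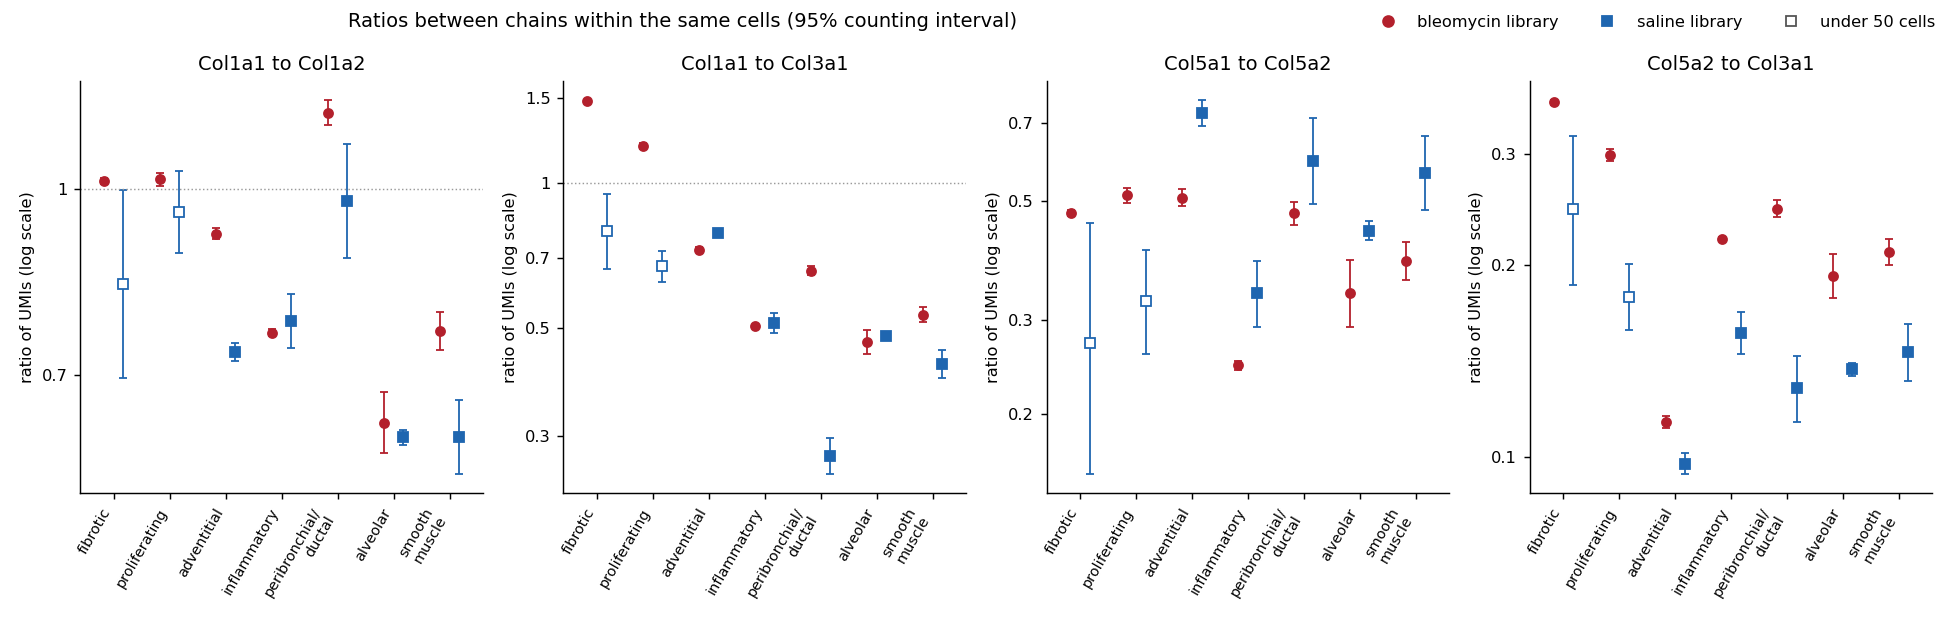
UMI ratios (log axes) of Col1a1 to Col1a2, Col1a1 to Col3a1, Col5a1 to Col5a2 and Col5a2 to Col3a1 by class, bleomycin points left of saline points, with 95% conditional binomial intervals and open squares for under 50 cells. For Col1a1 to Col3a1 the bleomycin fibrotic fibroblast-like cells stand highest at 1.475, and the saline peribronchial and ductal myofibroblast-like cells lowest at 0.272 among classes with at least 50 cells.

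The ratio of Col1a1 to Col3a1 separated the classes more than the type I ratio did. Over all mesenchymal cells it was 0.856 in bleomycin and 0.569 in saline. It was highest in bleomycin fibrotic fibroblast-like cells at 1.475 [1.47 to 1.48], followed by bleomycin proliferating cells at 1.19. In peribronchial and ductal myofibroblast-like cells it was 0.658 [0.644 to 0.673] in bleomycin and 0.272 [0.249 to 0.297] in saline. Smooth muscle-like cells had 0.534 in bleomycin and 0.421 in saline, so that 2 classes stood higher in bleomycin with intervals that did not overlap. Adventitial fibroblast-like cells stood the other way, at 0.728 [0.720 to 0.735] in bleomycin and 0.789 [0.775 to 0.802] in saline. The lower value was held by the Pi16 cluster, at 0.721 in bleomycin and 0.897 in saline, while the Aqp1 cluster stood at 0.761 in bleomycin and 0.733 in saline. Alveolar fibroblast-like cells had 0.469 in bleomycin and 0.481 in saline, and inflammatory fibroblast-like cells 0.505 in bleomycin and 0.514 in saline, with overlapping intervals. None of these 3 fibroblast-like classes as a whole had a higher ratio in bleomycin, but parts of the adventitial and inflammatory ones did. The adventitial sub-cluster of 75 bleomycin and 997 saline cells had 0.912 [0.835 to 0.996] in bleomycin and 0.733 [0.718 to 0.749] in saline. Both further adventitial sub-clusters were led by Pi16, each with under 50 cells of 1 library. In that of 989 bleomycin and 44 saline cells the CPM ratio was 1.26 for Col1a1 and 1.33 for Col3a1. In that of 36 bleomycin and 417 saline cells it was 1.52 for Col1a1 and 1.31 for Col3a1, the opposite direction to the Pi16 cluster. The inflammatory sub-cluster of 569 bleomycin and 34 saline cells had a Col1a1 to Col3a1 ratio of 0.770 [0.759 to 0.781] in bleomycin and 0.595 [0.554 to 0.640] in saline. It is the one led by Igha, Jchain and Igkc that took no class name, and its saline cells are under the minimum. The larger inflammatory sub-cluster, of 2922 bleomycin and 35 saline cells, ran the other way. Its bleomycin to saline CPM ratio was 1.09 for Col1a1 and 1.22 for Col3a1.

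In the peribronchial and ductal class, the sub-cluster of 186 bleomycin and 78 saline cells had a ratio of Col1a1 to Col3a1 of 0.447 [0.414 to 0.482] in bleomycin and 0.261 [0.199 to 0.338] in saline. The mostly saline sub-cluster had 0.290 in its 27 bleomycin cells, a number under the minimum for a comparison, and 0.268 in its 319 saline cells. Col1a2 to Col3a1 was 0.569 in bleomycin and 0.279 in saline over that class. In adventitial fibroblast-like cells it was 0.793 in bleomycin and 1.08 in saline over the class, but 1.19 [1.09 to 1.29] in bleomycin and 1.03 [1.01 to 1.06] in saline in the sub-cluster with at least 50 cells of each.

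Among the type V chains, Col5a2 stood higher relative to Col5a1 in bleomycin than in saline. Col5a1 to Col5a2 was 0.387 in bleomycin and 0.502 in saline over all mesenchymal cells. It was lower in bleomycin with intervals that did not overlap in 4 of 5 classes, beginning with alveolar fibroblast-like cells at 0.337 in bleomycin and 0.441 in saline. Adventitial fibroblast-like cells had 0.508 in bleomycin and 0.731 in saline, inflammatory fibroblast-like cells 0.247 in bleomycin and 0.336 in saline, and smooth muscle-like cells 0.387 in bleomycin and 0.565 in saline. Without the deep smooth muscle cluster the last pair became 0.430 in bleomycin and 0.568 in saline, with overlapping intervals. In the adventitial sub-cluster with at least 50 cells of each library it was 0.837 in bleomycin and 0.731 in saline, again with overlapping intervals. In peribronchial and ductal myofibroblast-like cells it was 0.475 [0.452 to 0.498] in bleomycin and 0.595 [0.493 to 0.717] in saline, and the intervals overlapped. Fibrotic fibroblast-like cells of bleomycin had 0.476.

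Col5a2 to Col3a1 was higher in bleomycin in each of the 5 classes. Alveolar fibroblast-like cells had 0.192 in bleomycin and 0.137 in saline, adventitial ones 0.113 in bleomycin and 0.0974 in saline, and inflammatory ones 0.220 in bleomycin and 0.157 in saline. Peribronchial and ductal myofibroblast-like cells had 0.246 in bleomycin and 0.128 in saline, and smooth muscle-like cells 0.210 in bleomycin and 0.146 in saline. This pair are the neighbours on chromosome 1 described above, and their levels did not keep a fixed ratio. Col5a1 to Col1a1 was 0.113 in both libraries over all mesenchymal cells, but lower in bleomycin with intervals that did not overlap in 3 of 5 classes. It was 0.177 in bleomycin and 0.280 in saline in peribronchial and ductal myofibroblast-like cells, 0.152 in bleomycin and 0.196 in saline in smooth muscle-like cells, and 0.0793 in bleomycin and 0.0903 in saline in adventitial fibroblast-like cells. Without the deep smooth muscle cluster the intervals of the smooth muscle-like class overlapped. Neither adventitial cluster had a lower Col5a1 to Col1a1 ratio in bleomycin, unlike the class as a whole. The Aqp1 cluster had 0.127 in bleomycin and 0.106 in saline, with intervals that did not overlap. In the Pi16 cluster the bleomycin ratio divided by the saline one was 1.06, and the intervals overlapped. Col5a3 to Col5a1 was 0.248 in bleomycin and 0.183 in saline over all cells, and 0.157 in bleomycin and 0.299 in saline within inflammatory fibroblast-like cells.

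To compare the share of cells with each chain at equal depth, 9328 bleomycin and 8033 saline mesenchymal cells were thinned to 2000 UMIs, which left out 131 bleomycin and 141 saline cells. A Col1a1 UMI was found in 91.5% of bleomycin and 65.7% of saline cells, a Col1a2 UMI in 95.7% of bleomycin and 79.0% of saline cells, and a Col3a1 UMI in 96.1% of bleomycin and 79.1% of saline cells. Col5a1 was found in 44.9% of bleomycin and 18.0% of saline cells, and Col5a2 in 77.4% of bleomycin and 29.2% of saline cells. Col5a3 was found in 11.9% of bleomycin and 2.99% of saline cells, and Col11a1 in 0.997% of bleomycin and 0.0124% of saline cells. All 7 shares were higher in bleomycin. The major chains were thus found in most cells of either library, and Col5a3 and Col11a1 in a minority of both. Without thinning, Col1a1 was found in 98.4% of the 9459 bleomycin cells.

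Free RNA was gauged in a cluster of alveolar epithelial-like cells, which should make little of these chains, with median depths of 5721 UMIs in bleomycin and 5386.5 in saline. At 2000 UMIs, Col1a1 was found in 14.5% of its 166 bleomycin and 5.31% of its 113 saline cells, and Col3a1 in the same shares. Col5a2 was found in 11.4% of its bleomycin and 12.4% of its saline cells, against 26.8% of saline alveolar fibroblast-like cells. The Col5a2 to Col3a1 UMI ratio of this cluster was 0.427 in bleomycin and 1.48 in saline. Over mesenchymal cells it was 0.250 in bleomycin and 0.128 in saline. The cluster thus did not hold this pair in the mesenchymal mixture, and it is a doubtful gauge for Col5a2. The source of its Col5a2 UMIs was not tested. Col5a3 was found in 0 of these epithelial-like cells in either library, which allows shares of up to 2.20% in bleomycin and 3.21% in saline. The Col5a3 shares of all saline mesenchymal cells, 2.99%, and of saline alveolar, peribronchial and ductal, and smooth muscle-like cells, 2.35%, 2.83% and 1.84%, are under that limit. These shares alone cannot be read as expression at this depth. Summed over cells without thinning, Col5a3 stood at 16.6, 15.5 and 9.25 CPM in those 3 saline classes. It stood at 1.38 CPM (1 UMI) in the saline epithelial-like cluster.

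Fibrotic fibroblast-like cells of bleomycin varied among themselves. Per cell, Col1a1 averaged 60.1 UMIs per 10000 with an SD over cells of 46.6, and its 10th percentile, median and 90th percentile were 15.1, 46.8 and 124. The Col1a1 share of Col1a1 plus Col3a1 UMIs averaged 56.3% with an SD over cells of 16.4, where counting alone would give 4.96, over 2225 cells with at least 20 such UMIs. The Col1a1 share of Col1a1 plus Col1a2 UMIs averaged 49.6% with an SD of 9.12, where counting alone would give 4.95. Cells therefore differed more in their balance of type I and type III chains than in that of the type I chains. In bleomycin inflammatory fibroblast-like cells the same shares averaged 32.3% with an SD of 12.04, and 41.8% with an SD of 9.25. These SDs are over cells of 1 library and say nothing of animals.

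Col5a3 was concentrated in few cells, since the 10% of mesenchymal cells with the most of it held 72.9% of its UMIs in bleomycin and 95.9% in saline, where the saline value rests on a low level. Within fibrotic fibroblast-like cells thinned to 2000 UMIs, a Col5a3 UMI was found in 23.6% and a Col11a1 UMI in 3.48% of bleomycin cells.

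Bleomycin fibrotic fibroblast-like cells were divided by UMIs of Cthrc1, a secreted protein used as a marker of matrix-producing fibroblasts, and Acta2, the actin of contractile cells, at 2000 UMIs per cell. The 529 cells with both held 9534 CPM of Col1a1 [9349 to 9722] and 4987 of Col3a1. The 369 cells with Cthrc1 only held 7821 of Col1a1 and 5182 of Col3a1. The 518 cells with Acta2 only held 5131 of Col1a1 and 4014.5 of Col3a1, and the 851 cells with neither held 3538 of Col1a1 and 3484 of Col3a1. The Col1a1 to Col3a1 ratio ran through the 4 groups in the same order, at 1.91, 1.51, 1.28 and 1.02. A missing UMI at this depth does not show that a cell lacks the RNA.

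The minor chains followed Cthrc1 more than Acta2. Col11a1 stood at 67.1 CPM in cells with both, 69.1 with Cthrc1 only, 7.72 with Acta2 only and 1.18 with neither. Col5a3 stood at 295 with both, 218 with Cthrc1 only, 155 with Acta2 only and 120.4 with neither. Col5a1 stood at 1089 with both, 747 with Cthrc1 only, 629 with Acta2 only and 419.5 with neither. Col5a2 spread least, from 1751 with both to 1211 with neither, and Col5a1 to Col5a2 was 0.622 with both and 0.346 with neither. Of these chains Col11a1 thus differed most between the 4 groups.

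**Figure D5:**
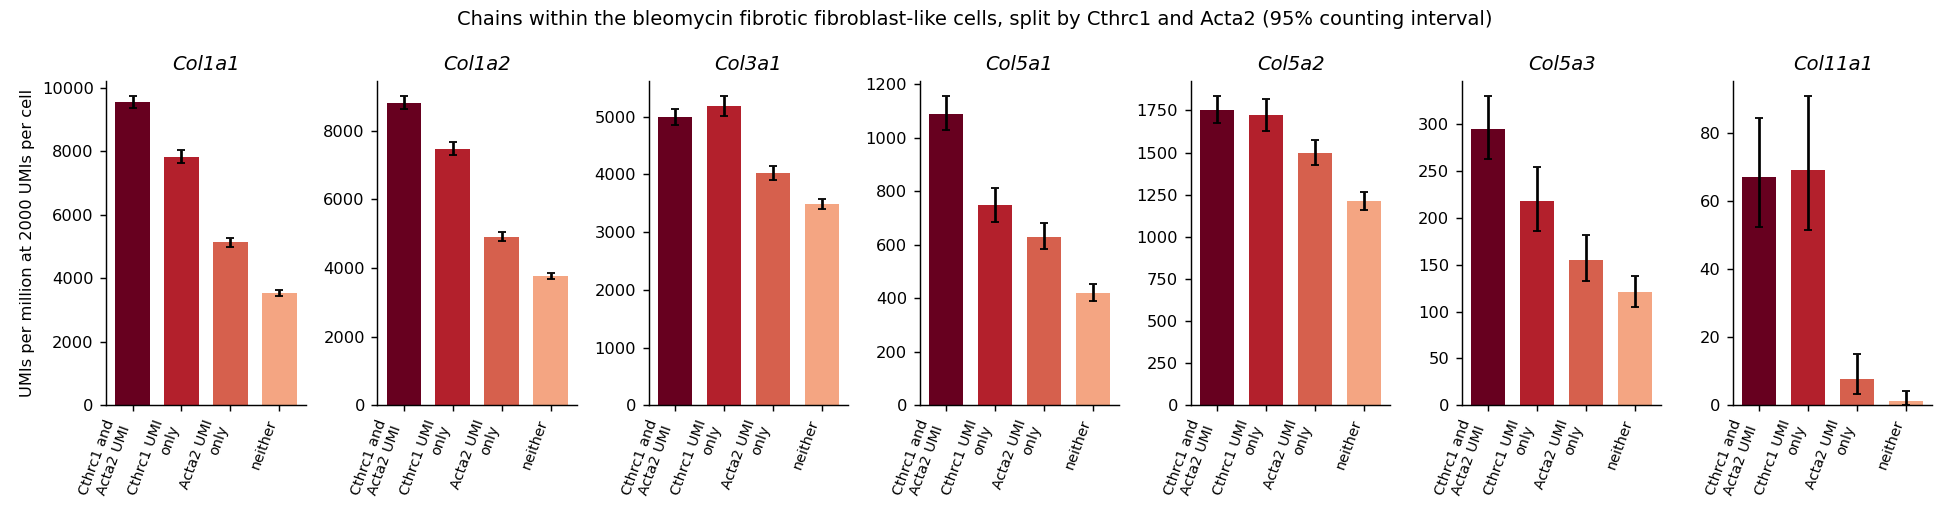
Levels of the chains (CPM after thinning to 2000 UMIs per cell, linear axes from 0) in bleomycin fibrotic fibroblast-like cells grouped by Cthrc1 and Acta2 UMIs, with 95% Poisson intervals. Col1a1 runs from 9534 with both UMIs to 3538 with neither, and Col3a1 from 4987 to 3484.

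The same split was made in other bleomycin classes with at least 50 cells on both sides. Adventitial fibroblast-like cells held 9926 CPM of Col1a1 in the 95 cells with a Cthrc1 UMI and 5124 in the 945 without. Inflammatory fibroblast-like cells held 3441 in the 85 cells with it and 2227 in the 4091 without. Proliferating cells held 7364 in the 118 cells with it and 3039.6 in the 366 without, and a Col1a1 to Col3a1 ratio of 1.89 with it and 0.890 without. Higher Col1a1 with a Cthrc1 UMI was thus measured in each of the 4 classes that could be split.

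At the finer resolution the fibrotic fibroblast-like cells fell mainly into 3 sub-clusters. The 876 bleomycin cells in the one led by Cthrc1, Col8a1 and Postn held 9229 CPM of Col1a1, 4666 CPM of Col3a1 and 64.0 CPM of Col11a1, with a Col1a1 to Col3a1 ratio of 1.98. The 1179 in the one led by Spp1 and Fst held 4067 CPM of Col1a1, 3786 CPM of Col3a1 and 5.43 CPM of Col11a1, a ratio of 1.07. The 199 in an unnamed one held 3002 CPM of Col1a1 and 3386 CPM of Col3a1, a ratio of 0.887. No saline cell fell into the first.

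Cells with a Col11a1 UMI stood apart in the other chains as well. The 93 such bleomycin cells held 12344 CPM of Col1a1, against 3411 in the 9235 bleomycin cells without one. Their Col1a1 to Col3a1 ratio was 2.02, against 0.763 in the cells without one. The cells without one span all mesenchymal classes. A Col11a1 UMI was found in 7.91% of the 898 fibrotic fibroblast-like cells with a Cthrc1 UMI and in 0.584% of the 1369 without. Those 898 cells as a whole held 8830 CPM of Col1a1, with a Col1a1 to Col3a1 ratio of 1.74. The part of class in the contrast was not tested.

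Across 12 units of class and library with at least 50 cells, Col1a1 and Col1a2 followed each other closely on a log2(CPM + 10) scale, with a Pearson correlation of 0.979. Col1a1 correlated with Col5a1 at 0.942 and with Col3a1 at 0.914, Col5a3 with Col11a1 at 0.869, and Col3a1 with Col11a1 at 0.376. These values describe 12 points that share 2 libraries. The genes most like each chain over the same units were P4hb (0.990), Cul7, Man1c1, Bpgm and Col1a2 for Col1a1, and Cul7 (0.983), Yipf5, Col1a1, Tmed3 and Sec61a1 for Col1a2. For Col3a1 they were Pigt (0.973), Mfap2, Ptgfrn, Erlec1 and Tsku, and for Col5a1 Ndrg1 (0.988), Ssr4, Fkbp10 (0.980), Bpgm and Ostc. For Col5a2 they were Ubfd1 (0.981), P3h1 (0.974), Trib2, Ltbp2 and Ppic, for Col5a3 Sh3bgrl3 (0.966), Ssr3, Lrrc59, Tgfb1 and Fkbp11, and for Col11a1 Fbn2 (0.984), Lgals7, Cck, Ddah1 and Sema7a.

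Genes that act on procollagen had smaller median ratios than the chains over all mesenchymal cells, where the rule called 5.57% of measured genes higher and 6.03% lower. Of 17 measured genes of procollagen folding and hydroxylation, 3 were called higher in bleomycin and none lower, and the median of the log2 ratios was 0.53. The 3 were P4ha3, a prolyl hydroxylase subunit, at 36.4 CPM in bleomycin and 4.32 CPM in saline, Fkbp10, a collagen chaperone, at 116 CPM in bleomycin and 42.0 CPM in saline, and P3h1, a prolyl 3-hydroxylase, at 57.6 CPM in bleomycin and 21.0 CPM in saline. The lowest ratios of the list were P3h3 at 89.2 CPM in bleomycin and 102 CPM in saline, and P4ha1 at 55.3 CPM in bleomycin and 58.4 CPM in saline.

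Of 8 measured genes of procollagen cleavage and cross-linking, 3 were higher and 1 was lower, against 5.57% and 6.03% of all measured genes. The log2 ratios had a median of 0.82. Bmp1, which cuts the C-propeptide, stood at 103 CPM in bleomycin and 26.8 CPM in saline. The cross-linking enzymes Loxl2 and Loxl3 stood at 108 and 25.7 CPM in bleomycin, against 41.0 and 9.72 CPM in saline. Pcolce2, an enhancer of that cleavage, was the gene called lower, at 249 CPM in bleomycin and 1424 CPM in saline, and its relative Pcolce stood at 348 CPM in bleomycin and 453 CPM in saline.

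Of 13 genes of fibril surface collagens, proteoglycans and fibronectin, 5 were higher and 2 were lower, against the same 5.57% and 6.03% of genes. The log2 ratios had a median of 0.63. Fn1, fibronectin, stood at 4067 CPM in bleomycin and 709 CPM in saline, Fmod, a small proteoglycan, at 115 CPM in bleomycin and 24.8 CPM in saline, and Col12a1, a collagen of fibril surfaces, at 167 CPM in bleomycin and 37.3 CPM in saline. Lower were Tnxb, a tenascin, at 44.1 CPM in bleomycin and 167 CPM in saline, and Ogn, a small proteoglycan, at 512 CPM in bleomycin and 1641 CPM in saline. Of 10 measured genes of collagen receptors and turnover, 5 were higher and none was lower, and the log2 ratios had a median of 0.76. Mmp8, a collagenase, stood at 24.0 CPM in bleomycin and 0.838 CPM in saline, Timp1, an inhibitor of such enzymes, at 2866 CPM in bleomycin and 344 CPM in saline, and Ctsk, a collagen-cutting cathepsin, at 189 CPM in bleomycin and 55.9 CPM in saline. The receptor Ddr2 stood at 114 CPM in bleomycin and 168 CPM in saline.

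Among the 5 classes compared, the counts called higher were largest in peribronchial and ductal myofibroblast-like cells for all 4 lists. That class also had the largest share of all measured genes called higher, 6.41%. In peribronchial and ductal myofibroblast-like cells 4 of 17 folding genes, 6 of 8 cleavage and cross-linking genes, 10 of 13 surface genes and 6 of 9 receptor and turnover genes were higher. In inflammatory fibroblast-like cells the counts were 0 of 17, 0 of 8, 2 of 13 and 3 of 10, against 3.82% of all measured genes. Of the 4 other fibrillar collagen genes, only Col27a1 reached 10 CPM over all mesenchymal cells, at 44.0 CPM in bleomycin and 42.3 CPM in saline, and it was called neither higher nor lower. Col24a1 stood at 7.03 CPM in bleomycin and 0.855 CPM in saline, Col11a2 at 0.650 CPM in bleomycin and 0.469 CPM in saline, and Col2a1, the chain of cartilage fibrils, was at 0 UMIs in bleomycin and 0.0670 CPM in saline.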

How the data were processed

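RNA of sorted mouse lung cells was counted by UMI with a 3' droplet kit in 1 library per group. The authors deposited filtered raw counts per gene and cell, made with Cell Ranger 6.1.2 on mm10, per the submitters' processing notes. The 7 chains, the gene lists and the marker lists were chosen with earlier results of these data known.

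Cells with at least 500 genes and at most 10% mitochondrial UMIs were kept. Scrublet in scanpy 1.11.5, with an expected share of 7%, marked 0 bleomycin cells and 2 saline cells, so it did not work as a doublet caller, and doublets may remain. After scaling to 10000 UMIs per cell, cells of both libraries were clustered together on 2000 variable genes without collagen genes, 30 principal components, 15 neighbours and Leiden resolution 0.5 (igraph 0.11.9, scikit-learn 1.9.0, seed 1), with no batch correction. A cluster was named where at least 3 of a list's markers were raised at least 1.5-fold with 10 CPM added, with further limits on the median, the share of markers and the leading 10 genes. Counts were summed per class and library. Intervals at the 95% level were Poisson for CPM, conditional binomial for ratios and Clopper-Pearson for shares (scipy 1.17.1, numpy 2.4.6, pandas 2.3.3). A class was compared between libraries with at least 50 cells in each. The size rule was tested on simulated counts. All 7 chains are named. Of the other lists, at most the 3 highest and 2 lowest ratios are named, and of alike genes the 5 with the highest correlation.

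Alternatives were other scalings, cell weights, cluster mixtures, cell filters, doublet removal, resolution 1, collagen genes kept, free RNA subtracted and other depths after thinning. Leaving out the deep smooth muscle cluster, and values of a class within its sub-clusters at resolution 1, were added after seeing the data.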

Additional observations from a re-analysis of the deposited data

Results flagged for a closer look

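Some values differed in direction between classes. Col5a3 in inflammatory fibroblast-like cells had a bleomycin to saline ratio of 0.568, where the ratio was above 1 in the 4 other classes compared, and the difference was not tested. Within that class Col5a3 was at 35.9 CPM in bleomycin and 17.1 CPM in saline in the sub-cluster with most bleomycin cells, and at 59.7 CPM in bleomycin and 109 CPM in saline in another. The latter was led by Igha, Jchain and Igkc and took no class name at that resolution. The Col1a1 to Col3a1 ratio of bleomycin, divided by that of saline, was 2.42 in peribronchial and ductal myofibroblast-like, 1.27 in smooth muscle-like and 0.923 in adventitial fibroblast-like cells, and the difference between classes was not tested. The adventitial sub-cluster of 75 bleomycin and 997 saline cells ran the other way, at 0.912 in bleomycin and 0.733 in saline. So did that of 36 bleomycin and 417 saline cells, with CPM ratios of 1.52 for Col1a1 and 1.31 for Col3a1.

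Chains were also found in clusters outside the mesenchymal comparison. A mesothelial-like cluster of 116 bleomycin and 41 saline cells held 1689 CPM of Col1a1 in bleomycin and 264 CPM in saline. Its Col1a2 stood at 1649 CPM in bleomycin and 413 CPM in saline, and its Col3a1 at 2177 CPM in bleomycin and 1442 CPM in saline. Col5a1 stood there at 176 CPM in bleomycin and 41.7 CPM in saline, Col5a2 at 561 CPM in bleomycin and 97.4 CPM in saline, and Col5a3 at 32.1 CPM in bleomycin and 6.95 CPM in saline. The saline cells are under the minimum for a comparison.

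The alveolar epithelial-like cluster, used as the gauge of free RNA, held 172 CPM of Col1a1 in bleomycin and 29.0 CPM in saline. Its Col1a2 stood at 209 CPM in bleomycin and 52.4 CPM in saline, its Col3a1 at 278 CPM in bleomycin and 45.5 CPM in saline, its Col5a1 at 31.9 CPM in bleomycin and 5.52 CPM in saline and its Col5a2 at 119 CPM in bleomycin and 67.6 CPM in saline.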

How the results depend on the processing

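Over all mesenchymal cells, the 7 chains each met the size rule under the median-ratio scaling, totals without collagen genes, the stricter cell filter, removal of the highest doublet scores, all filtered cells, no minimum CPM and subtraction of free RNA, and 6 did as a mean over cells. At the saline mixture of clusters 1 met it and at the bleomycin mixture 0 did, and there Col5a3 turned to a ratio of 0.747. These mixtures leave out the fibrotic, proliferating and deep smooth muscle clusters by construction. Across the 9 alternatives the ratio lay between 1.28 and 4.10 for Col1a1 and between 1.24 and 2.94 for Col3a1. It lay between 1.21 and 3.02 for Col1a2 and between 1.34 and 4.10 for Col5a1. The range was 1.67 to 6.74 for Col5a2, 0.747 to 5.66 for Col5a3 and 15.3 to 213 for Col11a1. The Col5a2 ratio of 6.74 came with free RNA subtracted, where the gauge is doubtful for that chain, and it passed the 5.66 of Col5a3. The median log2 ratio of all genes, which the median-ratio scaling removes, was -0.04 over genes of at least 10 CPM in both libraries. The 18 chain and class pairs became 13 without the highest doublet scores, 19 with free RNA subtracted and 15 to 18 under the other alternatives. At resolution 1 the inflammatory class had 35 saline cells and was not compared, so that count covers fewer pairs. The 2 classes with a higher Col1a1 to Col3a1 ratio remained 2 in number under all these alternatives. The 3 with a higher Col1a1 to Col1a2 ratio became 2 at resolution 1 and with free RNA subtracted, where the peribronchial and ductal class was lost. All 7 shares of cells were higher at 4000 UMIs and without thinning. Col11a1 in saline rests on 3 UMIs. No paired analysis was possible because each group has 1 library.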
